A study of Mus musculus with 12 samples.

Results

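The shared effect of phosphatidylserine (PS) on heart and cerebrum was measured on all 12 arrays of the study, 6 from PS mice and 6 from control mice. It is the mean of the within-tissue differences, PS minus control, with tissue as an additive factor. Of 35556 transcript clusters on the array, 21218 had 1 gene symbol (18820 symbols), and 11311 of these (9947 symbols) averaged at least the 40th percentile of those transcripts in heart and likewise in cerebrum, and were tested. Those percentiles were 4.94 in heart and 5.04 in cerebrum on the log2 scale. A transcript cluster is the array's set of probes for a gene, and each is called a transcript here. The mice were a C57BL/6J model of familial dysautonomia (FD), an inherited neuropathy of sensory and autonomic nerves, and every array carries the genotype label humanized knock-in IKBKAP FDloxP/+. PS mice were gavaged with 200 mg/kg PS on alternate days, starting at 4 months of age and lasting 3 months. Control mice received the vehicle, medium-chain triglycerides (MCT), on the same schedule, and each dose had a volume of 100 µl. Heart PS, heart MCT, cerebrum PS and cerebrum MCT had 3 arrays each, numbered 1 to 3. The series design describes FD mice in both arms, whereas the growth protocol also speaks of wild-type mice, and no wild-type array was analysed here. Arrays of a group are biological replicates per the labels, which do not say which heart and cerebrum came from the same mouse, so p-values measure the spread between these arrays.

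PS is a phospholipid of the inner leaflet of the plasma membrane. Cells make it by exchanging the head group of other phospholipids, flippases keep it on the inner side, and its exposure on dying cells is read by phagocyte receptors. Gene expression in heart and brain also follows hormones that reach every organ. Glucocorticoids bind the glucocorticoid receptor, which enters the nucleus and raises a set of target genes in many tissues, and the circadian clock drives daily rhythms in most cells.

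Heart and brain defining genes were in their places. Myl2, a ventricular myosin light chain, was at 11.84 to 12.05 in heart and 3.78 to 4.15 in cerebrum, and Snap25, a synaptic protein, was at 3.97 to 5.08 in heart and 12.30 to 12.44 in cerebrum. Array medians lay between 4.89 and 5, and arrays of the same group correlated at 0.963 to 0.995 across transcripts. The arrays of the treatment groups also differed in sex-linked transcripts. Xist, the RNA that silences an X chromosome in female cells, was at 8.92 to 9.86 in 5 of the 6 PS arrays and at 3.32 to 4.03 in cerebrum PS 2 and all 6 MCT arrays. Eif2s3y, a Y-linked translation factor gene, had the opposite pattern, at 3.41 to 3.78 in those 5 PS arrays and 7.25 to 8.67 in the others. Treatment and the sex pattern therefore cannot be told apart in heart, and in cerebrum only PS 2 separates them. The cerebrum PS arrays also had lower striatal markers, and heart MCT 3 and heart PS 3 had high levels of the atrial gene Myl7 (8.53 and 6.80, against 4.16 to 5.08 in the other heart arrays).

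Over heart and cerebrum together, 1255 of 11311 transcripts (11.1%) differed between PS and MCT at an adjusted p under 0.05 by limma with Benjamini-Hochberg adjustment over all transcripts tested. Of these, 523 were higher with PS (4.62% of those tested) and 732 lower (6.47%), which are 508 and 580 gene symbols. All 1255 had the same sign in heart and cerebrum, as did 60.6% of all transcripts tested. Opposite signs cancel in the tested mean and add to its error, so the selection itself favours the same sign. The differences were mostly small: their median size was 0.43 on the log2 scale, and 25 transcripts (7 higher, 18 lower) reached 1. The lowest adjusted p was 0.00845, and 3632 transcripts had an unadjusted p under 0.05. In 778 transcripts (6.88% of those tested; 363 higher, 415 lower) the PS and MCT arrays did not overlap in either tissue, in the same direction, against 319 (2.82%) that were separated in opposite directions. Of the 1255, 624 were separated in both tissues. Across all transcripts tested, which are not independent replicates, the heart and cerebrum differences correlated at 0.37 (Pearson) and 0.358 (Spearman). The median difference over all transcripts tested was 0.02 (0.06 in heart, -0.03 in cerebrum).

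**Figure D1:**
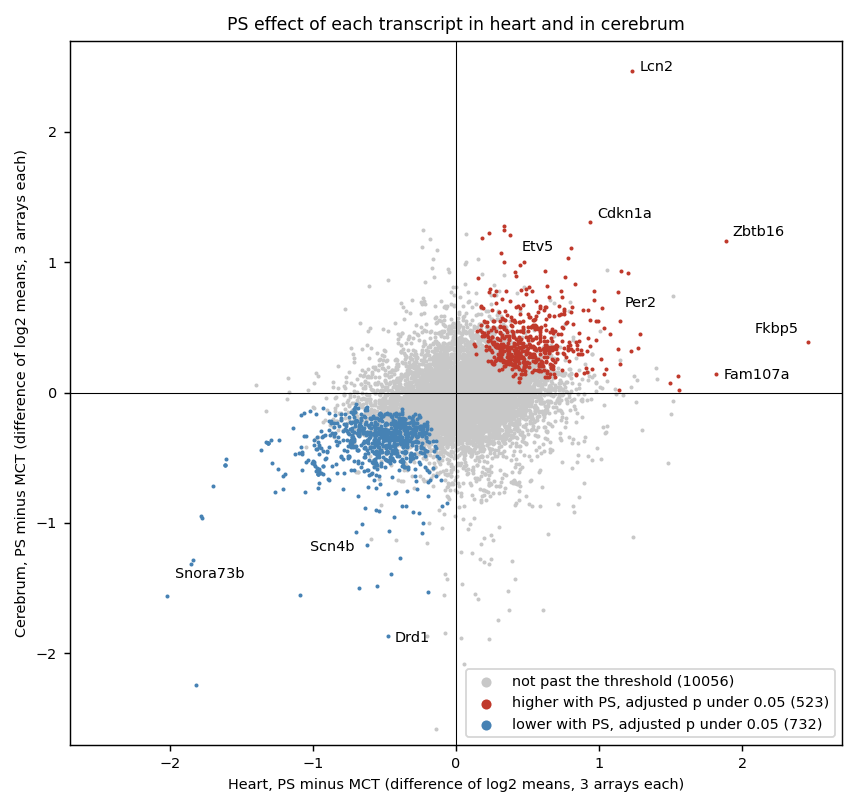
Difference between PS and MCT in heart (horizontal) and cerebrum (vertical), as differences of log2 means of 3 arrays each, for the 11311 transcripts tested. Red points are the 523 transcripts higher with PS and blue points the 732 lower; 5 transcripts lie outside the axes, which end at 2.7, and selected genes are named.

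The number of transcripts past the threshold depended on single arrays. Leaving out heart MCT 3 raised it to 3025, whereas leaving out cerebrum MCT 1 or cerebrum MCT 2 lowered it to 62, heart MCT 2 to 73, heart PS 3 to 110, heart PS 2 to 175, heart MCT 1 to 262, cerebrum PS 1 to 329, heart PS 1 to 505 and cerebrum PS 2 to 568. It was 1247 without cerebrum MCT 3 and 1142 without cerebrum PS 3. The control arrays numbered 3 lay nearest to the PS arrays in both tissues: in heart, MCT 3 was outside all 3 PS arrays on the MCT side for 73.7% of the 1255 transcripts, against 98.3% and 97.4% for MCT 1 and MCT 2, and in cerebrum the shares were 79.8%, 95.9% and 96.9%. These shares are a description, since the same arrays chose the transcripts. Only cerebrum PS 2 separates the sex pattern from PS. Adding that pattern as a term left 132 transcripts past the threshold, 42 of them among the 1255. Of the 119 named genes that passed over all arrays, 12 passed with it. In every fit with that term the PS difference rests on cerebrum PS 2, so its calls cannot test the shared effect apart from sex. The difference of Lcn2 went from 1.85 to 4.16, with cerebrum PS 2 at 8.58 against 5.21 in PS 1 and 6.64 in PS 3. If heart and cerebrum arrays of equal number came from the same mouse, which the labels do not say, each treatment had 3 mice and not 6 independent arrays. By sex-linked transcripts, heart PS 2 and cerebrum PS 2 as labelled were not from the same mouse. Xist was at 9.13 and 3.32 in them, and Uty at 3.16 and 7.23. Averaging heart and cerebrum arrays per treatment and number, that pair included, left 151 transcripts past the threshold, 140 of them among the 1255, and 45 of the 119 named genes. Keeping all 12 arrays with number and treatment as a random block and the tissue interaction in the model, a fit added after seeing the data, gave 1201 at an estimated correlation of 0.146.

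Genes induced by glucocorticoids had the highest median difference of the 44 lists. Of 18 tested members, 15 rose (83.3%, against 4.62% of all transcripts) and 0 fell by limma. The median difference was 0.72, being 0.83 in heart and 0.43 in cerebrum. PS arrays were above MCT arrays in both tissues for 12 of the 18, against 363 of all 11311 transcripts tested. Lcn2, Plin4 and Hif3a, 3 of the 15 and of these 12, had an MCT mean under the filter in cerebrum. They were tested only through their PS arrays, so their difference and separation were partly fixed by the filter. Zbtb16, a zinc finger repressor that hormone-treated cells induce strongly, was at 9.82, 9.92 and 10.15 in heart PS against 7.46, 7.90 and 8.88 in heart MCT, and at 8.86, 8.62 and 8.72 in cerebrum PS against 7.55, 7.42 and 7.75 in cerebrum MCT. All 3 PS arrays were above all 3 MCT arrays in each tissue, with heart MCT 3 the highest control. The shared difference was 1.52 (SE 0.21, limma adjusted p 0.00845), and Zbtb16 passed in all 12 fits that left out an array.

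Cdkn1a encodes the cell cycle inhibitor p21. It was at 9.11, 9.79 and 9.26 in heart PS against 8.61, 8.63 and 8.11 in heart MCT, and at 8.57, 9.07 and 9.43 in cerebrum PS against 7.78, 7.54 and 7.81 in cerebrum MCT. The groups did not overlap in either tissue, and the difference was 1.12 (SE 0.16, adjusted p 0.00845). Tsc22d3, which encodes the anti-inflammatory protein GILZ, rose by 0.60 (SE 0.10, adjusted p 0.0134), with heart PS at 9.01, 9.24 and 9.09 against 8.23, 8.35 and 8.23. In cerebrum its PS arrays were at 7.50, 7.64 and 7.79 and its MCT arrays at 7.07, 7.43 and 7.33, so the gap there was small but complete.

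Other members differed more between tissues or arrays. Lcn2, a secreted iron-siderophore carrier of inflamed tissue, rose by 1.85 (SE 0.46, adjusted p 0.0305), the largest difference after Xist among raised genes, and cerebrum PS 2 (8.58) stood far above PS 1 (5.21) and PS 3 (6.64). Its MCT arrays were at 3.75 to 4.94 in cerebrum, under the filter's 5.04 there, so this difference was partly fixed by the filter. In heart they were at 6.83 to 7.25, where PS was at 7.50 to 8.75. Fkbp5, a cochaperone that restrains the glucocorticoid receptor, was at 7.96, 8.59 and 8.28 in heart PS against 5.80, 5.73 and 5.91 in heart MCT. In cerebrum PS 1 and PS 3 (7.38 and 7.51) were above the MCT arrays (6.55, 6.83 and 6.71) and PS 2 (6.37) was below them. The shared difference of Fkbp5 was 1.43 (SE 0.33, adjusted p 0.0276), made of 2.46 in heart and 0.39 in cerebrum, and that difference between tissues passed the test (adjusted p 0.0174).

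Plin4, a lipid droplet coat protein, and Hif3a, an inhibitor of the hypoxia response, had the same order of arrays in cerebrum. PS 1 and PS 3 were at 6.07 and 6.55 for Plin4 and 5.79 and 5.99 for Hif3a, while PS 2 (5.16 and 4.92) was just above the highest MCT array (4.96 and 4.83). Their shared differences were 0.96 and 0.76, and both had a cerebrum MCT mean under the filter. Sgk1, a kinase that acts on ion channels, rose by 0.57 (SE 0.10, adjusted p 0.0145). Heart PS was at 7.85, 7.98 and 7.47 against 6.96, 7.25 and 7.08, and cerebrum PS at 8.46, 8.18 and 8.40 against 7.72, 7.93 and 7.97, with no overlap in either tissue. The 3 members that did not pass, named here after their values were seen, were Ddit4 at 0.68, Dusp1 at 0.36 and Pdk4 at -0.04.

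Without single arrays the list's median stayed between 0.60 and 0.79, while its members past the threshold ran from 3 (without cerebrum MCT 1) to 16 (without heart MCT 3 or cerebrum PS 3). With the sex pattern as a term the median was 0.42 and 1 member passed, and on the mean of both tissues per number 8 passed. Of 6 tested genes for corticosteroid receptors and steroid supply, 0 passed limma's adjusted threshold and 1 had an unadjusted p under 0.05. Nr3c1, the glucocorticoid receptor itself, differed by -0.04 in heart and 0.02 in cerebrum. Hsd11b1, the enzyme that regenerates active corticosterone, was at 6.48, 6.50 and 6.49 in heart PS against 7.58, 7.51 and 7.31 in heart MCT, all lower, and its groups overlapped in cerebrum. Its shared difference was -0.41 (SE 0.28, adjusted p 0.329).

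**Figure D2:**
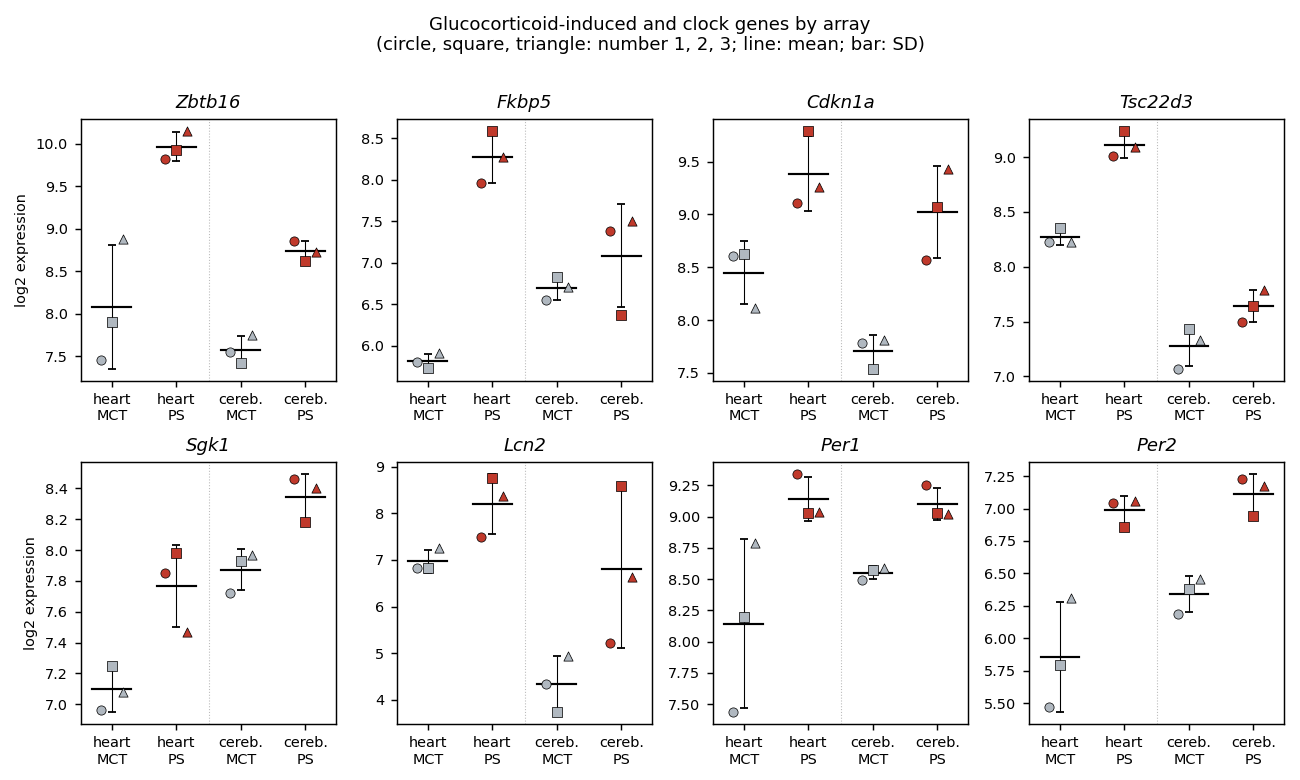
Log2 expression of 6 glucocorticoid-induced genes and of Per1 and Per2 in each of the 12 arrays, MCT in grey and PS in red, with the mean (line) and SD (bar) of the 3 arrays of a group. In heart every PS array lies above every MCT array for all 8 genes; in cerebrum this holds for all but Fkbp5, whose PS 2 array (square) is the lowest of its tissue.

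Promoters of these genes, 250 bases before to 50 after a start site, were taken from RefSeq's GRCm38.p6 annotation for 20 of the 23 listed genes. They are shown because the list's members moved together. The glucocorticoid receptor binds a palindrome whose textbook form is AGAACA, any 3 bases and TGTTCT. On either strand it occurred in a promoter of 3 of 27025 genes (0.0111%), and Sgk1 was the only tested gene among them. The looser form GNACA, any 3 bases and TGTNC, which includes it, was held by 145 genes (0.537%) and by 4 of the 20 listed genes with a promoter, 2 of which are Sgk1 and Fam107a. Its share was 0.322% among genes tested, 0.983% (4 of 407) among those higher with PS and 0.416% among those lower. The E-box CACGTG, the motif of the clock's activators, was held by 2187 genes (8.09%) and by 5 of 18 clock genes with a promoter, of which Per1 is one. It was also held by 4 of the 20 glucocorticoid-induced genes, among them Sgk1, whose sequence below has it in lower case. Among genes tested the E-box share was 12.3%, and among those higher with PS it was 10.1%. Capitals mark the match. The full palindrome is in an Sgk1 promoter at chr10:21993640-21993939 on the plus strand. The looser form is in a Fam107a promoter at chr14:8309730-8310029 on the minus strand, and the E-box in a Per1 promoter at chr11:69098699-69098998 on the plus strand. These genes had 6, 3 and 2 promoters, of which the first with a match is shown. Each is written 5′ to 3′ along its gene. A match of letters is no measured binding site.
Sgk1: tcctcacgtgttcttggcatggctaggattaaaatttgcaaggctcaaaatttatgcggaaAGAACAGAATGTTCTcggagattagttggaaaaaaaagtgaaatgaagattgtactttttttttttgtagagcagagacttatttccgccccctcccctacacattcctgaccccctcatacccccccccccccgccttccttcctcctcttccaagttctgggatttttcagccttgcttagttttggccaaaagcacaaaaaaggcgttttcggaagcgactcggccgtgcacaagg
Fam107a: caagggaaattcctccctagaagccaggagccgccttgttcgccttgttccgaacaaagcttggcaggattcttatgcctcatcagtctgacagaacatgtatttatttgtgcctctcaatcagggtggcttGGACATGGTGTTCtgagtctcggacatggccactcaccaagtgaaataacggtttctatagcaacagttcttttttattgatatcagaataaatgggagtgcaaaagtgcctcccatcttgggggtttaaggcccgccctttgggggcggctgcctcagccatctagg
Per1: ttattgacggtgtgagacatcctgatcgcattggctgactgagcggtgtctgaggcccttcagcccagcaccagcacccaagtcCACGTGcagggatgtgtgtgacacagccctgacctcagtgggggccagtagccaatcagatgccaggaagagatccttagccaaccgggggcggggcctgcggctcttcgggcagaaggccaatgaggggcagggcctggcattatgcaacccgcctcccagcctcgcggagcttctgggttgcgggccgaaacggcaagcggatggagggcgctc

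Clock genes moved in part. Of 18 tested, 4 rose (22.2%, against 4.62% of all transcripts), 0 fell at limma's adjusted threshold, and the median was 0.33. Per1, 1 of the 4, is also in the glucocorticoid list. By array the list's medians overlapped between PS and MCT in both tissues. Relative to the MCT mean, heart MCT 3 was at 0.29 and heart PS 2 at 0.28, and both cerebrum MCT 3 and cerebrum PS 3 were at 0.04. Per2, a core repressor of the clock, was at 7.04, 6.86 and 7.06 in heart PS against 5.47, 5.79 and 6.31 in heart MCT, and at 7.23, 6.94 and 7.17 in cerebrum PS against 6.19, 6.38 and 6.46. The groups did not overlap, and the difference of 0.95 (SE 0.13, adjusted p 0.00845) held its call in all 12 fits without an array. Per1, its paralog, rose by 0.77 (SE 0.18, adjusted p 0.0276). Per1 controls in heart ranged widely, at 7.44, 8.20 and 8.79, all below the PS arrays at 9.34, 9.03 and 9.04. Noct, a rhythmic phosphatase of nicotinamide cofactors, rose by 0.73, and Bhlhe40, a transcriptional repressor of the clock, by 0.69. The activators did not move with them: Arntl differed by -0.20 (adjusted p 0.59) and Clock by 0.01 (adjusted p 0.98). The count was 1 without heart MCT 2 and 6 without heart MCT 3. The time of day at which tissues were taken is not given in the sources used here.

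Transcription factors and signalling genes that answer to growth factors were also higher. Of 12 tested feedback genes of the ERK pathway, 8 rose and 0 fell by limma, with a median of 0.42 and all 12 differences above 0. Etv5, an ETS factor induced by fibroblast growth factor signalling, was at 5.99, 6.93 and 6.37 in heart PS against 5.75, 5.78 and 5.41, and at 8.76, 8.80 and 8.42 in cerebrum PS against 7.61, 7.49 and 7.78. No PS array overlapped with a control, and the difference was 0.91 (SE 0.14, adjusted p 0.0103). Dusp4, a phosphatase that switches ERK off, rose by 0.78 and was tested only through its PS arrays, its MCT mean being under the filter in 1 tissue. Ier3, an early response gene, rose by 0.56 and Spry4, a Sprouty inhibitor of receptor signalling, by 0.45. The count fell to 1 without any of cerebrum MCT 1, cerebrum PS 1, heart PS 2 or cerebrum MCT 2, with a median of 0.36 to 0.48 over all 12 fits. Of 16 immediate early genes, which neurons switch on within minutes of activity, 3 rose and none passed as lower: Fosl2 by 0.71, Fosb by 0.48 and Homer1 by 0.38. Their list had a median of 0.05 in heart and 0.66 in cerebrum, and 0 of the 16 passed limma's threshold in any fit without an array other than those without heart MCT 3, heart PS 1, cerebrum MCT 3 or cerebrum PS 3; over all arrays 6 had an unadjusted p under 0.05.

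Kruppel-like factors, zinc finger regulators of which some answer to glucocorticoids, had 4 of 15 members higher and 0 lower by limma, with a median of 0.26. Klf9, a target of the glucocorticoid receptor, rose by 0.49 (SE 0.10, adjusted p 0.021) and was separated in both tissues, at 9.68 to 9.79 against 8.79 to 9.30 in heart and 9.90 to 10.12 against 9.63 to 9.75 in cerebrum. Klf4 rose by 0.57, Klf13 by 0.61 and Klf3 by 0.37. For Klf13 the heart difference (1.05) exceeded the cerebrum difference (0.18) with an adjusted p of 0.0447 for the difference between tissues. None of the 15 passed without cerebrum MCT 1, heart MCT 2, cerebrum MCT 2 or heart PS 3.

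Insulin-like growth factor genes leaned upward as a group. All 12 tested genes had differences above 0, with a median of 0.46, 6 rose and 0 fell by limma. Igfbp7, a secreted binding protein of vessel walls, was at 10.88, 11.81 and 11.06 in heart PS against 10.29, 10.38 and 10.58, and at 9.32, 9.72 and 9.17 in cerebrum PS against 8.57, 8.22 and 8.93. Its arrays did not overlap in either tissue (difference 0.83, SE 0.16, adjusted p 0.021). Igf1r, the receptor, rose by 0.53, Irs1, the adaptor behind it, by 0.55, Igfbp4 by 0.55 and Igf2, a ligand, by 0.42. Igfbp3, the main carrier in blood, rose by 0.84, of which 1.55 in heart and 0.13 in cerebrum. Leaving out cerebrum MCT 1, cerebrum MCT 2 or heart MCT 2 left 0 members past the threshold, and leaving out heart MCT 3 gave 8.

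Of 17 tested endothelial cell markers, 8 rose (47.1%) and 0 fell by limma, with medians of 0.54 in heart and 0.34 in cerebrum. Sox18, a transcription factor of vessel identity, was at 8.39, 8.97 and 8.51 in heart PS against 7.55, 7.84 and 8.19 in heart MCT, and at 5.94, 6.21 and 5.91 in cerebrum PS against 5.18, 5.07 and 5.15. All PS arrays were above all MCT arrays of their tissue, with a difference of 0.82 (SE 0.12, adjusted p 0.00845). Vwf, the clotting factor stored in endothelial cells, rose by 0.78, Eng, a receptor for transforming growth factor beta, by 0.68 and Esam, an adhesion molecule, by 0.52. Sox18 passed in all 12 fits without an array.

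The rise of vessel markers was not even across arrays. Relative to the MCT mean of the tissue, the endothelial list's median was 0.24 in heart MCT 3 and 0.22 in cerebrum MCT 3, against 0.49 to 0.65 in heart PS and 0.36, 0.64 and 0.09 in cerebrum PS 1, 2 and 3. Cerebrum PS 3 thus lay below a control. Cldn5, a tight junction protein, and Emcn, an endothelial sialomucin, both defining markers, differed by -0.10 and 0.04 and did not pass. Smooth muscle and pericyte markers had 1 of 10 higher, Vtn (0.60, SE 0.10, adjusted p 0.0134), a matrix protein that brain pericytes make. Fibroblast markers had 0 of 10 past limma's threshold and 5 with an unadjusted p under 0.05, and their median stood at 1.80 above the MCT mean in heart PS 2 against 0.20 and 0.42 in heart PS 1 and PS 3. In bulk tissue more cells of a type and more RNA per cell cannot be told apart. Without heart MCT 2, cerebrum MCT 1, cerebrum MCT 2, heart PS 2 or heart PS 3 the endothelial count was 1, and the list's median over all 12 fits ran from 0.30 to 0.48.

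The unfolded protein response, by which the endoplasmic reticulum adjusts its chaperones, had 5 of 25 tested genes higher and 0 lower by limma. All 25 differences were above 0, with a median of 0.24 (0.37 in heart, 0.14 in cerebrum). Relative to the MCT mean of the tissue, the list's median in cerebrum MCT 3 was 0.12. Cerebrum PS 1 (0.08) and PS 3 (0.09) lay below that control and PS 2 (0.32) above it. In heart, MCT 3 was at 0.11 and PS at 0.18 to 0.55. Xbp1, a transcription factor of the response, was at 9.32, 9.78 and 9.70 in heart PS against 9.19, 9.10 and 9.22, and at 9.51, 9.78 and 9.48 in cerebrum PS against 9.19, 9.06 and 9.33. The groups were separate in both tissues, and the difference was 0.41 (SE 0.09, adjusted p 0.0267). Herpud1, of the degradation complex, rose by 0.58, Chac1, a glutathione-degrading target of the integrated stress response, by 0.52 and Syvn1, a ubiquitin ligase, by 0.42. Hspa5, the main chaperone, differed by 0.31 (adjusted p 0.064). Its count was 0 without cerebrum MCT 1, cerebrum MCT 2, heart MCT 2, heart PS 2 or heart PS 3, with an unadjusted p under 0.05 for 12 members over all arrays.

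Few members of these raised lists passed once the sex pattern was a term. The limma counts were 1 of 18 clock genes, 2 of 16 immediate early genes, 1 of 12 ERK feedback genes, 1 of 15 Kruppel-like factors, 0 of 12 insulin-like growth factor genes (2 at an unadjusted p under 0.05), 1 of 17 endothelial markers and 2 of 25 genes of the unfolded protein response. Their medians in that fit were 0.41, 0.89, 0.50, 0.15, 0.38, 0.73 and 0.31. The PS difference there rests on cerebrum PS 2, so these medians cannot test the shared effect. On the mean of both tissues per number the counts were 2, 0, 1, 2, 1, 2 and 0, with 7 immediate early genes and 11 unfolded protein response genes at an unadjusted p under 0.05 by limma.

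Raised genes outside the lists included 3 that passed in all 12 fits without an array. Xdh, xanthine dehydrogenase, rose by 0.87 (SE 0.13), Tinagl1, a matrix protein, by 1.04 (SE 0.16) and Acer2, an alkaline ceramidase, by 1.06 (SE 0.16), each with an adjusted p of 0.00845 and no overlap in either tissue.

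Lists of the machinery for translation and respiration had more of their members lower than the 6.47% of all transcripts tested. Mitochondrial ribosomal proteins had 26 of 69 tested genes lower (37.7%) and 0 higher by limma, with a median of -0.30. Cytosolic ribosomal proteins had 14 of 44 lower (31.8%) and 0 higher, with a median of -0.31, and 1 of the 44 differences was above 0. Subunits of respiratory complex I had 12 of 35 lower with a median of -0.27, and those of complexes II to V had 8 of 37 lower with a median of -0.21. Each of these medians was below 0 in heart and in cerebrum.

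Uqcr11, a small subunit of complex III, was at 9.92, 9.73 and 9.94 in heart PS against 10.72, 10.65 and 10.14 in heart MCT, and at 7.43, 7.34 and 7.60 in cerebrum PS against 8.28, 8.52 and 8.22 in cerebrum MCT. Every PS array was below every MCT array, and the transcript fell by 0.76 (SE 0.11, adjusted p 0.00845). Ndufa4, listed with complex I and known as a subunit of cytochrome c oxidase, fell by 0.47, Ndufa11, an accessory subunit of complex I, by 0.50 and Atp5j2, of ATP synthase, by 0.39. Mrpl46, of the large mitochondrial ribosomal subunit, fell by 0.78 (SE 0.15, adjusted p 0.021), with heart PS at 7.51, 7.15 and 7.57 against 8.65, 8.67 and 7.74. Heart MCT 3 was again the control nearest to PS. Mrpl13 fell by 0.78, Mrpl54 by 0.71 and Mrps9 by 0.45, all separated in both tissues. Among cytosolic ribosomal proteins Rps12 fell by 0.79, Rpl5 by 0.57, Rpl24 by 0.55 and Rpsa, which also serves as a laminin receptor, by 0.50.

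Small non-coding RNAs were lower as well. Of 37 tested small nuclear, nucleolar and Y RNA genes, 18 fell (48.6%) and 0 rose by limma, with a median of -0.41 (-0.60 in heart, -0.41 in cerebrum). Snora21 and Snord35b, 2 of the 18, had a PS mean under the filter in a tissue. Snora73b, a box H/ACA nucleolar RNA, was at 6.71, 6.97 and 6.70 in heart PS against 9.26, 9.27 and 7.37 in heart MCT, and at 5.94, 5.82 and 6.24 in cerebrum PS against 7.12, 7.37 and 7.37. The groups did not overlap, though heart MCT 3 lay much nearer to PS than the other controls, and the difference was -1.56 (SE 0.27, adjusted p 0.0134). Snora16a, of the same class, fell by 1.32 (SE 0.22), with heart MCT 3 (7.89) at the level of heart PS (7.70 to 7.89). Rny1, a Y RNA bound by the Ro protein, fell by 0.92 (SE 0.15), Rnu12, the RNA of the minor spliceosome, by 0.78 (SE 0.13) and Rmrp, the RNA of a ribonuclease that processes ribosomal RNA, by 0.91 (SE 0.23). These RNAs come from multigene families or lie within host genes, and whole-transcript probes may not tell copies apart.

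**Figure D3:**
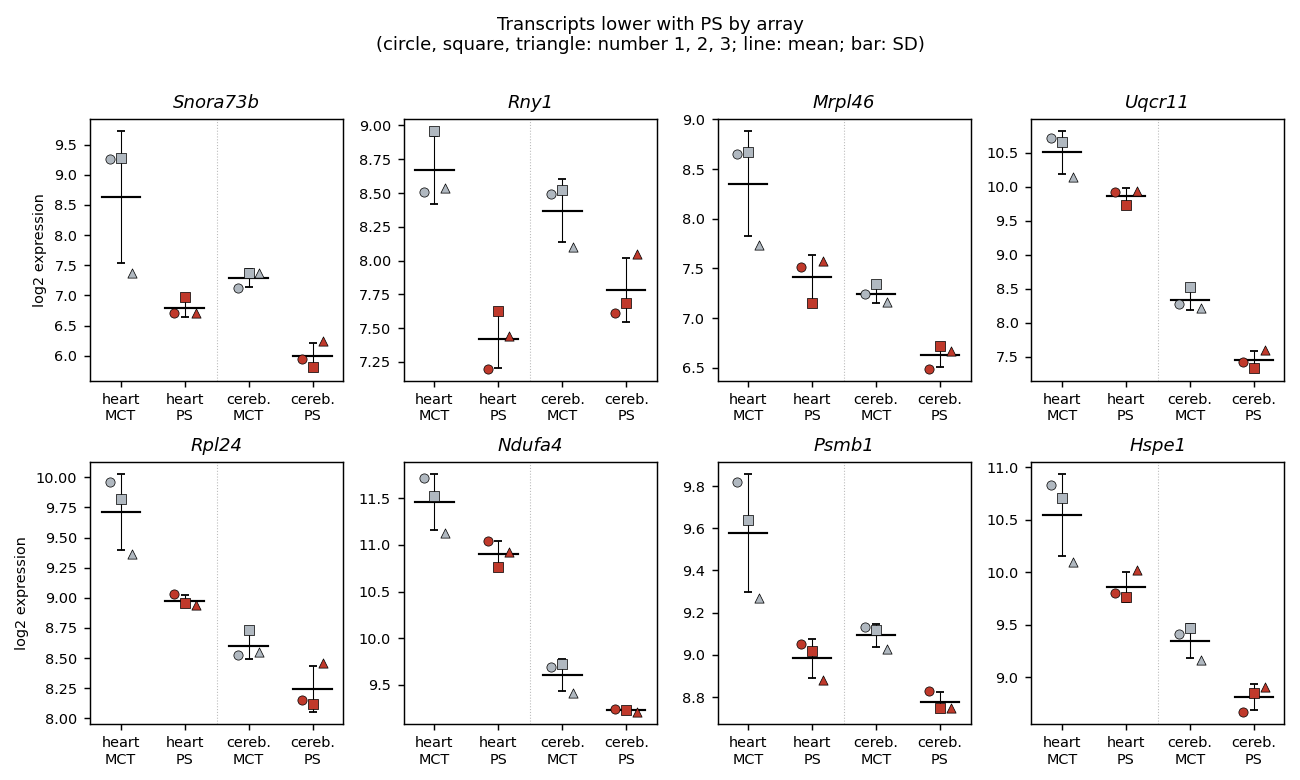
Log2 expression in each of the 12 arrays of 8 transcripts lower with PS, MCT in grey and PS in red, with the mean (line) and SD (bar) of the 3 arrays of a group. No PS array reaches a control of its tissue for these 8 transcripts; the triangles of heart MCT, array 3, are the lowest heart controls other than for Rny1.

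The controls numbered 3 lay on the PS side for these groups. Relative to the MCT mean of the tissue, heart MCT 3 stood at -0.31 for cytosolic ribosomal proteins, -0.29 for mitochondrial ones, -0.20 for complex I and -0.39 for small RNAs, where heart PS ranged from -0.34 to -0.43, -0.28 to -0.54, -0.23 to -0.44 and -0.40 to -0.57. Cerebrum MCT 3 was at -0.16, -0.07, -0.15 and -0.27, and was level with or below cerebrum PS 3 (-0.15, -0.21, -0.16 and -0.20) for cytosolic ribosomal proteins and small RNAs. Leaving out heart MCT 3 raised the counts of lower genes to 34 of 44, 43 of 69 and 21 of 35, and left that of small RNAs at 18 of 37. Leaving out cerebrum MCT 2 or heart MCT 2 gave 0, 0, 0 and 4, and without cerebrum MCT 1, heart PS 2 or heart PS 3 the cytosolic and complex I counts were also 0 by limma. Over all arrays 34, 46, 21 and 23 members had an unadjusted p under 0.05. The medians over these fits stayed between -0.26 and -0.37, -0.25 and -0.35, -0.22 and -0.32, and -0.36 and -0.51. With the sex pattern as a term the limma counts were 1, 0, 0 and 0, with 15, 14, 8 and 11 members at an unadjusted p under 0.05 and medians of -0.37, -0.24, -0.29 and -0.43, and complexes II to V had 0 (11 unadjusted). On the mean of both tissues per number 1, 2, 0 and 9 were lower, with 32, 46, 21 and 24 at an unadjusted p under 0.05. No measure of RNA quality was used here, and its part was not tested.

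**Figure D4:**
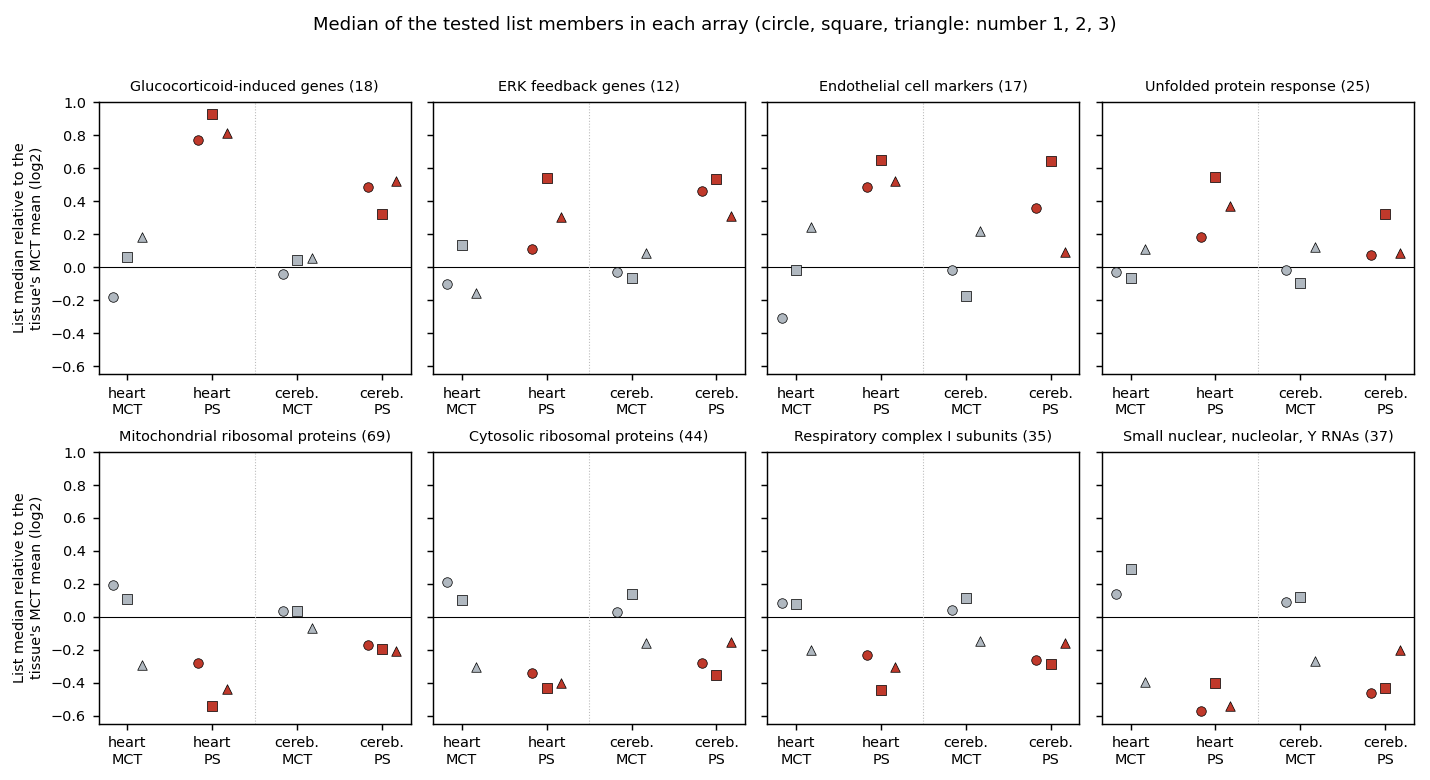
Median over the tested members of 8 gene lists in each of the 12 arrays, after subtraction of each gene's MCT mean in the tissue, on the log2 scale. MCT is grey and PS red, and circle, square and triangle mark arrays 1, 2 and 3; the MCT triangles lie on the PS side of 0 in both tissues for every list but the ERK feedback genes.

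Proteasome subunits had 5 of 30 lower and 0 higher by limma, with a median of -0.15, among them Psmb1 (-0.46), Psma3 (-0.48) and Psma6 (-0.46). Of 14 tested heat shock proteins and cochaperones 1 fell and 1 rose (7.14% each, against 6.47% and 4.62% of all transcripts). Hspe1, the mitochondrial co-chaperonin, fell by 0.61 (SE 0.12, adjusted p 0.021), while Hspb1, a small heat shock protein, rose by 0.79 (SE 0.19, adjusted p 0.0302), mostly in cerebrum (1.25, against 0.34 in heart). Of 21 tested antioxidant enzymes 3 were lower (14.3%) and 1 higher (4.76%): Prdx1 (-0.45), Prdx2 (-0.29) and Gpx4 (-0.44) fell and secreted Sod3 rose (0.64). Among lowered genes outside the lists, Itgb1bp1, a regulator of integrins, was at 7.02, 6.98 and 6.82 in heart PS against 8.23, 7.97 and 7.49, and at 6.44, 6.36 and 6.68 in cerebrum PS against 7.19, 7.36 and 7.00. It did not overlap between groups and fell by 0.82 (SE 0.12, adjusted p 0.00845). Smim26, a small mitochondrial membrane protein, fell by 0.98, Chchd1, of the mitochondrial ribosome, by 0.91, Sptssa, a small activator of the first enzyme of sphingolipid synthesis, by 0.85 and Acyp2, an acylphosphatase, by 0.78. Hddc2, Rpa3, of the single-strand DNA binding complex, and Zfp931 fell by 0.76, 0.91 and 0.92. Of 40 splicing factor proteins 4 fell (10%, against 6.47% of all transcripts), among them Snrpe (-0.73), Snrpg (-0.54) and Srsf5 (-0.40), and 1 rose (2.5%, against 4.62%), Srsf10 (0.28).

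Genes of PS handling were listed because PS was the agent. Of 18 tested genes of phospholipid synthesis, 3 fell (16.7%, against 6.47% of all transcripts) and 1 rose (5.56%, against 4.62%), with a median of 0.0025. Ptdss2, a PS synthase, was at 7.90, 7.80 and 7.87 in heart PS against 8.24, 8.39 and 7.88, and at 7.95, 8.08 and 8.01 in cerebrum PS against 8.39, 8.33 and 8.37. Its arrays were separate in cerebrum and overlapped in heart through MCT 3, and it fell by 0.33 (SE 0.08, adjusted p 0.0307). Crls1, which makes cardiolipin, fell by 0.53 and Chpt1, which makes phosphatidylcholine, by 0.28, while Cdipt, which makes phosphatidylinositol, rose by 0.32. Ptdss1, the other PS synthase, differed by -0.19 in heart and -0.15 in cerebrum without passing.

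Among 14 flippase and scramblase genes Atp10a alone passed (7.14% higher, against 4.62% of all transcripts), at 0.52 (SE 0.14, adjusted p 0.0363). Of 14 receptors and bridging proteins, Mertk and Stab1 rose (14.3%, against 4.62% of all transcripts), by 0.49 and 0.48, and Stab1 had an MCT mean under the filter in a tissue. Mertk, a receptor kinase by which macrophages and glia take up dying cells, was at 6.02, 6.73 and 6.38 in heart PS against 5.80, 5.94 and 5.88, and at 7.96, 8.05 and 8.04 in cerebrum PS against 7.62, 7.41 and 7.61, with no overlap. Macrophage markers beside it had 0 of 16 past limma's threshold and 5 with an unadjusted p under 0.05, at a median of 0.02. The synthesis list had 0 to 6 members past the threshold over the 12 fits without an array and the receptor list 0 to 4, with heart MCT 3 left out at the upper end and cerebrum MCT 1 at the lower in each. The Elongator complex and wobble uridine modification are the pathway affected in familial dysautonomia. Of its 10 tested genes 1 fell (10%, against 6.47% of all transcripts) and 0 rose by limma. The list's median was -0.02, with 5 differences above 0 and 5 below. Dph3, an electron donor of that chemistry, fell by 0.45 (SE 0.13, adjusted p 0.039), and Urm1, a ubiquitin-like sulfur carrier, differed by -0.41 (adjusted p 0.0649).

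Striatal markers were lower in cerebrum PS and enter the shared effect. Of 12 tested striatal markers 3 fell (25%, against 6.47% of all transcripts), and the list's median was -1.54 in cerebrum and 0.07 in heart. Of the 3, Scn4b and Syndig1l had a PS mean under the filter in a tissue, so their difference was partly fixed by the filter. Scn4b, a sodium channel subunit of striatal neurons, was at 7.80, 7.94 and 8.38 in cerebrum PS against 9.19, 9.21 and 9.23, and at 4.67, 4.84 and 5.01 in heart PS against 5.66, 5.45 and 5.27. It was lower in every PS array of both tissues, though its heart PS mean of 4.84 is under the filter, and the shared difference was -0.90 (SE 0.13, adjusted p 0.00845). Drd1, a dopamine receptor, was at 6.27, 6.44 and 8.15 in cerebrum PS against a mean of 8.82 (SD 0.16, n = 3) in cerebrum MCT, and at 5.12, 5.09 and 5.14 in heart PS against 6.08, 5.40 and 5.30, near the filter's 4.94. All PS arrays were below all MCT arrays of their tissue, and the difference was -1.17 (SE 0.32, adjusted p 0.0377). Cerebrum PS 1 and PS 2 carried the striatal shift (list medians of -1.97 and -1.91 relative to the MCT mean) more than PS 3 (-0.51). Mme, a membrane peptidase, and Pcbd1, a dehydratase of biopterin, had larger differences in cerebrum (-1.39 and -1.48) than in heart (-0.45 and -0.55), and these tissue differences did not pass. Of 6 tested myelin markers Mog and Mal fell, by 0.67 and 0.62, and 4 did not pass; the heart PS mean of Mog, 4.70, is under the filter. Of 10 cortical markers 0 passed limma's threshold and 4 had an unadjusted p under 0.05, with list medians of 0.53, 0.42 and -0.09 above the MCT mean in cerebrum PS 1, 2 and 3. Choroid plexus markers were all under the filter, but Ttr, the transthyretin of that tissue, was at 10.82, 11.54 and 5.98 in cerebrum MCT and at 4.34 to 6.70 in cerebrum PS. The part of the dissected regions in the shared effect was not tested. Leaving out cerebrum PS 1 and PS 2 together left 55 transcripts past the threshold.

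Of 332 tested X-linked transcripts 44 passed (13.3%, against 11.1% of all transcripts), 16 of them higher, and 1208 of the 1255 were on neither sex chromosome. Beside Xist (difference 4.67, SE 0.85, adjusted p 0.0167), the escape genes Kdm5c (0.76), Ddx3x (0.56) and Utp14a (0.41) rose. On the Y chromosome 3 of 4 tested transcripts fell, with differences of -4.02 for Eif2s3y, -3.61 for Uty and -1.79 for Kdm5d, all 3 with PS means under the filter.

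An additive effect can rest on a single tissue, so the difference between tissues was tested over the same transcripts. It passed for 165 of 11311 transcripts (1.46%), and for 15 of the 1255. The genes with the lowest p for it on the raised side were separated in heart and not in cerebrum. Baiap2, an adaptor of the actin cytoskeleton, was at 6.92 to 6.99 in heart PS against 5.32 to 5.72 and at 9.46 to 9.88 in cerebrum PS against 9.46 to 9.82. Heart groups were far apart and cerebrum groups overlapped, and the difference between tissues was 1.42 (adjusted p 0.0109). Fam107a, a stress-induced actin regulator, differed by 1.82 in heart and 0.15 in cerebrum, Spock2, a brain proteoglycan, by 1.56 and 0.02, and Fam117b by 1.14 and 0.02. On the lowered side Tmem14c, a mitochondrial porphyrin transporter, moved in heart (-0.93, against -0.12 in cerebrum), while Lmo2, a transcription cofactor, and H2-Ke6, a hydroxysteroid dehydrogenase, moved in cerebrum (-0.84 and -0.87, against -0.06 and -0.10 in heart). Plppr1, a neuronal membrane protein, and Timm10, a chaperone of mitochondrial import, had adjusted p-values for the difference between tissues of 0.0552 and 0.0556. Without heart MCT 3 the number of transcripts with a tissue difference was 1635. It was 33 without cerebrum MCT 1, 36 without cerebrum PS 1, 39 without cerebrum MCT 2, 50 without cerebrum PS 2, 62 without heart PS 2, 77 without heart MCT 2, 86 without cerebrum MCT 3, 88 without heart MCT 1 and 91 without heart PS 3.

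**Figure D5:**
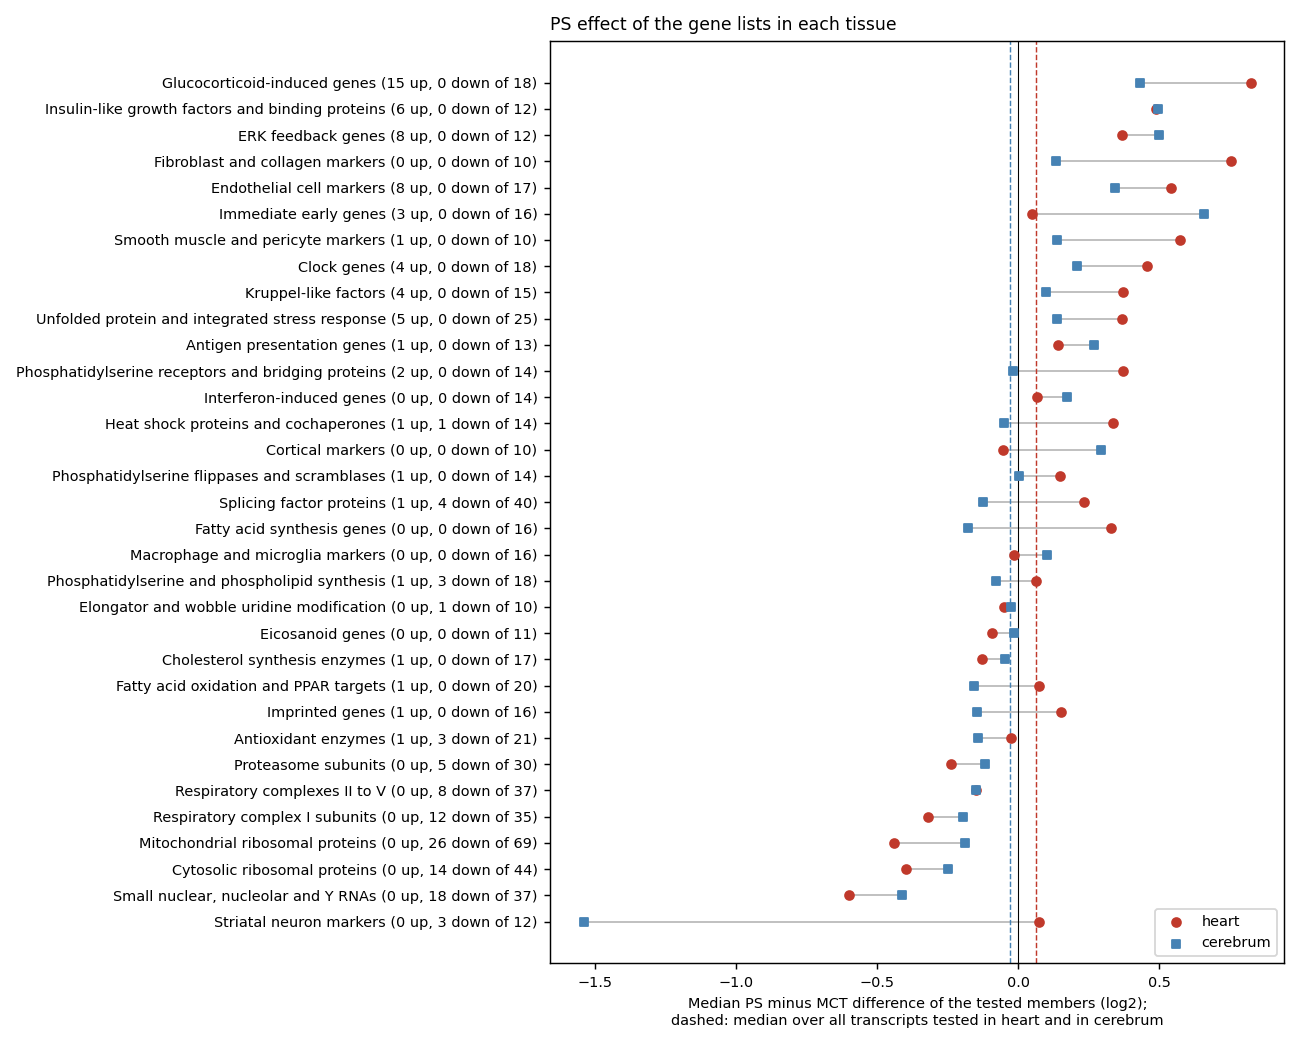
Median difference between PS and MCT of the tested members of each gene list with 10 or more of them, in heart (red circles) and cerebrum (blue squares), with the numbers that passed in the shared effect beside each name. The glucocorticoid list is highest in heart at 0.83 and stands at 0.43 in cerebrum, where immediate early genes are highest at 0.66. The striatal list is lowest in cerebrum at -1.54, and the dashed lines mark the medians over all transcripts tested (0.06 and -0.03).

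Some lists had shares of raised genes near the 4.62% of all transcripts tested. Cholesterol synthesis had 1 of 17 (5.88%), Srebf2 (0.28), the factor that drives the pathway. Fatty acid oxidation had 1 of 20 (5%), Ppargc1a (0.40), a coactivator of mitochondrial genes. Antigen presentation had 1 of 13 (7.69%), Tapbp (0.36), which loads peptides onto class I molecules. Imprinted genes had 1 of 16 (6.25%), Igf2. For the difference between tissues 5 of the 16 imprinted genes passed, the most of any list, against 1.46% of all transcripts. Of 14 interferon-induced genes 0 passed limma's threshold and 1 had an unadjusted p under 0.05. Of 3 tested adipocyte markers Pparg rose by 0.41, and the other two, Lpl and Nnat, had differences of -0.24 and -0.78 without passing, for a list median of -0.24.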

How the data were processed

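Biotin-labelled RNA was hybridised to Affymetrix whole-transcript arrays. Per the submitters' processing notes the authors used Affymetrix Expression Console, and they deposited 1 log2 value per transcript cluster and array. Its version, the method of summary and the build are not given in the sources analysed, and base 2 was inferred from the range (1.9 to 13.11). The values were used as deposited. Groups came from the labels, with no array averaged or dropped. Transcripts with 1 symbol in the supplied platform annotation and, in each tissue, a mean not below the 40th percentile were fitted with limma 3.58.1 (lmFit, eBayes; two-sided; Benjamini-Hochberg over all transcripts tested, threshold 0.05) in R 4.3.3, PS against MCT with tissue as a term, and again with their interaction. Every adjusted p in the text comes from these fits, which were also run on simulated data with independent noise per array. There 3.66% of calls were false for the shared effect and 7.2% for the tissue difference. Changes of 0.5 were recovered in 79.1% and 17.9% of cases. The simulation had no shared mice and no sex pattern, so it cannot say how the fits behave with these. The 44 lists (1009 genes, 730 tested), the members and the rules were chosen with earlier results of these data known. Lists overlap in some genes, and 1 transcript per gene, with the highest mean, stands for a member.

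Named genes were, among those past the threshold and in each direction, the 12 with the largest difference, the 12 with the largest smaller-of-both tissue difference among those separated in both tissues, and 5 with the lowest interaction p. From each list the 4 members with the lowest p at most, Xist and Y-linked genes were added. List members outside that rule (Ddit4, Dusp1, Pdk4, Nr3c1, Arntl, Clock, Cldn5, Emcn, Hspa5, Ptdss1) and the marker genes Myl2, Snap25, Myl7 and Ttr were named after their values were seen. The number of arrays limits the precision. Shared replicate numbers were checked as pairs: deviations of heart and cerebrum arrays of equal number and treatment correlated at 0.0723 to 0.328, over 0.1 in 5 of 6 cases. PS 2, with opposite sex-linked patterns in heart and cerebrum, was among these at 0.109. As the labels tie no number to a mouse and 1 case was not over 0.1, the fit has no block, and fits that treat equal numbers as pairs are given beside it.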

Additional observations from a re-analysis of the deposited data

Results flagged for a closer look

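Among the named genes, 11 had a PS effect that differed between heart and cerebrum by the interaction test over all 12 arrays (limma, Benjamini-Hochberg over all transcripts tested). The difference, heart minus cerebrum on the log2 scale, was 2.07 for Fkbp5 (adjusted p 0.0174), 1.67 for Fam107a (0.0109), 1.53 for Spock2 (0.0138), 1.42 for Baiap2 (0.0109), 1.42 for Igfbp3 (0.0109) and 1.12 for Fam117b (0.0109). It was 0.86 for Klf13 (0.0447) and 0.77 for Ddx3x (0.0462), and every heart PS array of these 8 genes was above every heart MCT array. Tmem14c differed by -0.81 (0.0167), lowered in heart. Lmo2 differed by 0.78 (0.0253) and H2-Ke6 by 0.77 (0.0253), both lowered in cerebrum. Fkbp5, Fam107a, Igfbp3 and Spock2 lost the threshold of the shared effect in 7, 7, 8 and 10 of the 12 fits that left out an array.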

How the results depend on the processing

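The shared effect was refitted under 39 alternatives. Its count of 1255 stayed within 1.5 times (1115 to 1839) under quantile normalization, median centring, other filters on the mean, the intensity trend, robust eBayes, an interaction term and without X- and Y-linked genes. It was 605 with no filter, 505 with transcripts of several symbols or none included, 17 with a plain t statistic, 2813 with array weights (whose estimate stopped before its tolerance), 20 at a threshold of 0.01, 2539 at 0.10, 151 on the mean of heart and cerebrum per treatment and number, 55 without cerebrum PS 1 and PS 2, 2323 without heart MCT 3 and heart PS 3, and 132 with the sex pattern as a term. The share of higher calls moved from 41.7% to 57% on the mean of both tissues. Without single arrays it ran from 62 to 3025, and without both arrays of a treatment and number from 0 (MCT 1 or MCT 2, with 2240 and 2208 transcripts at an unadjusted p under 0.05 by limma) over 1 (PS 1), 48 (PS 2) and 131 (PS 3) to 3209 (MCT 3). The tissue difference of 165 became 329 after median centring, where 86.6% were more positive in heart against 74.5%, 98 with the plain t statistic, 255 with array weights, 0 at 0.01 (2194 at an unadjusted p under 0.05 by limma) and 542 at 0.10, and ran from 33 to 1635 without single arrays. Of 119 named genes past the threshold, 23 passed in all 12 fits without an array. With the sex pattern as a term the differences of Xist, Kdm5d and Hsd11b1 turned to -0.43, 0.0126 and 1.07. The mean of both tissues rests on 6 values in place of 12. The other causes were not tested.

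Replicate numbers were used as a block although they do not pair the arrays by their label. With number as a fixed block 1115 transcripts passed for the shared effect and 158 for the tissue difference, and with treatment and number as a random block 1255 and 440, at estimated correlations of 4.01e-05 without and 0.146 with the interaction. With the random block and the interaction in the model, chosen after seeing the data, 1201 passed for the shared effect, 1038 of them among the 1255. Of 6 heart arrays, 5 correlated best with the cerebrum array of their own number and treatment, which is a hint from the data and not the design. Heart PS 2 is among the 5, although its sex-linked pattern is opposite to that of cerebrum PS 2.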
